A study of Mus musculus with 6 samples.

Results

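Glutathione and thioredoxin antioxidant genes were described in single-cell RNA-Seq (scRNA-Seq) of cultured mouse tracheal epithelium. They were taken by symbol: every glutathione S-transferase written as *Gst* with a letter and a number, every *Mgst*, *Gpx*, *Prdx*, *Txnrd* and *Ggt* gene with a number, and *Gclc*, *Gclm*, *Gsr*, *Gss*, *Txn1*, *Txn2*, *Sod1*, *Sod2*, *Cat*, *Nqo1*, *Hmox1*, *Srxn1*, *Nfe2l2* and *Keap1*. The rule took 58 of the 20483 genes of the count table, and no measured value entered it.

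Superoxide dismutases turn superoxide into hydrogen peroxide, which is removed by catalase, by the glutathione peroxidases and by the peroxiredoxins. The peroxidases draw electrons from glutathione, a tripeptide made by glutamate-cysteine ligase and glutathione synthetase and reduced again by glutathione reductase, while most peroxiredoxins draw them from thioredoxin. Glutathione transferases join glutathione to reactive lipids and foreign compounds, and airway epithelium meets inhaled oxidants first. Many of these genes are induced by the transcription factor NRF2, the product of *Nfe2l2*, which KEAP1 holds at a low level in unstressed cells.

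Tracheal cells of 3 *WT/WT* and 3 *MIS/MIS* mice, 12 weeks old and on the C57BL/6 background, had been grown at an air-liquid interface (ALI), where basal cells form a layer of basal, secretory and multiciliated cells. *MIS* is a missense allele of *Dnaaf5* made by CRISPR-Cas9, which changes cysteine to phenylalanine in a cytoplasmic factor that assembles the dynein motors of motile cilia, and *MIS/MIS* mice carry it on both chromosomes in every cell. The *WT/WT* mice were littermates, and the comparison asks how cells with poorly assembled motors differ in expression. Each mouse gave 1 library, so replicates are mice, and they are named here as the cell names do: WT1, WT2 and WT3 for *WT/WT*, and MT1301, MT1306 and MT1383 for *MIS/MIS*.

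The libraries held 2673 to 6710 cells (23871 in all) and 100961835 to 153326568 unique molecular identifiers (UMIs), with a median of 21328 to 35383 UMIs a cell. Of the barcodes, 67 occurred in more than 1 library. Cells carried the authors' names of 16 clusters, here also joined into multiciliated (4 clusters), secretory (2) and basal cells (8). The names were checked with marker genes: 6 multiciliated markers summed to 3666 to 4727 CPM in multiciliated cells and to at most 48.7 CPM in the other classes, and 4 basal markers to 4432 to 6825 CPM in basal cells and to at most 3301 CPM elsewhere. The 6 secretory markers summed to 34944 to 94699 CPM in secretory cells and still to 6217 to 13173 CPM in multiciliated cells, and their part in the levels of the members there was not tested. Endothelial markers (2 of 3 in the table) stayed at or under 0.92 CPM and fibroblast markers at or under 6.70 CPM outside basal cells, where they reached 132.7 CPM in WT3. Leukocyte markers summed to 400.1 to 2718 CPM in multiciliated cells (highest in WT1), 835 to 2385 CPM in secretory and 64.1 to 474 CPM in basal cells, most of it *Lyz2*, at means of 1369, 1441 and 167 CPM, and tuft markers (2 of 3 in the table) to at most 71.8 CPM. *Dnaaf5* itself, at 38.2, 42.1 and 49.4 CPM in multiciliated cells of the *WT/WT* mice and 49.3, 54.8 and 54.9 CPM in those of the *MIS/MIS* mice, does not check the genotype, because counts near the 3′ end do not read the changed codon.

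Levels are given in counts per 1000000 (CPM), the UMIs of a gene per 1000000 UMIs of all genes, summed over the cells of a mouse and a class or cluster. One UMI stands for 1 captured RNA molecule whatever its length, so no division by length is needed between genes. A difference between genotypes is a log2 fold change, *MIS/MIS* over *WT/WT*, from limma voom with TMM scaling, fitted over all genes of a class, with p-values adjusted by Benjamini-Hochberg over all of them.

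The genes lie on 16 chromosomes (mm10), in part in tight families. *Gsta1*, *Gsta2* and *Gsta4* fill 173 kb of chromosome 9, the 7 *Gstm* genes 149 kb of chromosome 3, the 3 *Gstp* genes 24.2 kb of chromosome 19 and the 3 *Gstt* genes 63.3 kb of chromosome 10. The 3′ ends of some members are like those of other genes, which bears on counting. In the last 500 bases of the transcripts, 77.9% of the 90-base windows of *Gsta1* also occurred in *Gsta2* or *Gm3776*, 69.5% of those of *Gstp1* in *Gstp2* or a pseudogene, and 80.3% of those of *Gpx4* in *Gpx4-ps2* or another model, so the counts of *Gsta1*, *Gsta2* (30.9%), *Gstp1*, *Gstp2* (48.5%), *Gstt3* (25.3%) and *Gpx4* are uncertain in how reads were shared out. No shared window was found for 46 members.

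NRF2 binds antioxidant response elements, whose core is TGACNNNGC. RefSeq promoter sequence (GRCm38.p6, 250 bases before to 50 after the start) was at hand for 51 of the 58 members and not for *Gclc*, *Ggt5*, *Gsr*, *Gsta4*, *Gstt2*, *Hmox1* and *Prdx6*. The core occurred on either strand in 11 of the 51 (21.6%), namely *Gclm*, *Ggt1*, *Gsta3*, *Gstm5*, *Gstm7*, *Mgst1*, *Nfe2l2*, *Prdx1*, *Sod1*, *Srxn1* and *Txnrd1*, against 16.4% of the 14522 genes of the count table that had a promoter. A match is a run of letters and not a measured site. The sequences of 4 of them, all on the plus strand, are given with the match in capitals: *Gclm*, *Srxn1* and *Txnrd1*, whose level differed between mice, and *Prdx1*, an abundant member whose level differed less. The stretches are chr3:122245307-122245556 (to the last base before the start), chr4:116685349-116685543 and chr10:82858956-82859178, and for *Srxn1*, whose match begins 28 bases after the start, chr2:152105542-152105571. GENCODE M21 starts an exon before the RefSeq start in *Prdx1* and *Txnrd1*, and those stretches end before it, while its *Srxn1* gene begins at 152105516 and its *Txnrd1* gene, with an earlier first exon, at 82833951.
Gclm: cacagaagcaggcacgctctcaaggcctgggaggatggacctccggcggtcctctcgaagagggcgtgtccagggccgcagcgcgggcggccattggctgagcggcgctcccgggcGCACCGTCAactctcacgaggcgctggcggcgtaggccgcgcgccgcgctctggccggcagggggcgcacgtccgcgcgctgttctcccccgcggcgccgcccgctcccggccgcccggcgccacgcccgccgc
Prdx1: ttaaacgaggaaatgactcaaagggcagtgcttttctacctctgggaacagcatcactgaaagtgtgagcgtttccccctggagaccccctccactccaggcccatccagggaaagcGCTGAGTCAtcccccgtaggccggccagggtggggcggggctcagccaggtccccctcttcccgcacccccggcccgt
Txnrd1: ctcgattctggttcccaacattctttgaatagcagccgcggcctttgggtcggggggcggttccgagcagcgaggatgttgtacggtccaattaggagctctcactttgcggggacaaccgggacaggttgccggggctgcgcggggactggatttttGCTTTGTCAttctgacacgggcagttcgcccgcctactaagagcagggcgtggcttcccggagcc
Srxn1: gcagtgggcaGCTAGGTCAgagtgagacac
Each match reads GCNNNGTCA, the core on the opposite strand, and begins 134 bases before the RefSeq start in *Gclm*, 133 in *Prdx1* and 92 in *Txnrd1*.

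Together the 58 genes took 2.30% of all UMIs. Their sum was highest in secretory cells (26456 ± 2343 CPM, SD over 6 mice), followed by basal (21118 ± 2833 CPM) and multiciliated cells (20056 ± 871 CPM). Basal sums overlapped with those of both other classes, since WT1 stood at 26603 CPM in basal cells, and multiciliated sums all lay below the secretory ones. Glutathione transferases were the largest group in every class, with 11174 ± 1442 CPM in secretory, 9989.9 ± 2995 CPM in basal and 7203 ± 599 CPM in multiciliated cells. Peroxiredoxins with sulfiredoxin followed, at 5769 ± 384 CPM, 4067 ± 462 CPM and 4778 ± 173 CPM in the same order, and then the glutathione peroxidases at 3811 ± 183 CPM, 2596 ± 313 CPM and 2896 ± 207 CPM. Thioredoxins with their reductases were highest in multiciliated cells (1572 ± 103 CPM, against 1159 ± 107 CPM in basal and 1067 ± 72.6 CPM in secretory cells), and so were the superoxide dismutases with catalase (859 ± 59.1 CPM, against 623 ± 19.3 CPM in secretory and 459 ± 24.6 CPM in basal cells). In both of these groups every multiciliated value lay above every value of the other classes. Membrane transferases were highest in secretory cells, at 1873 ± 136 CPM against 981 ± 113 CPM and 720.1 ± 74 CPM in basal and multiciliated cells.

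**Figure D1:**
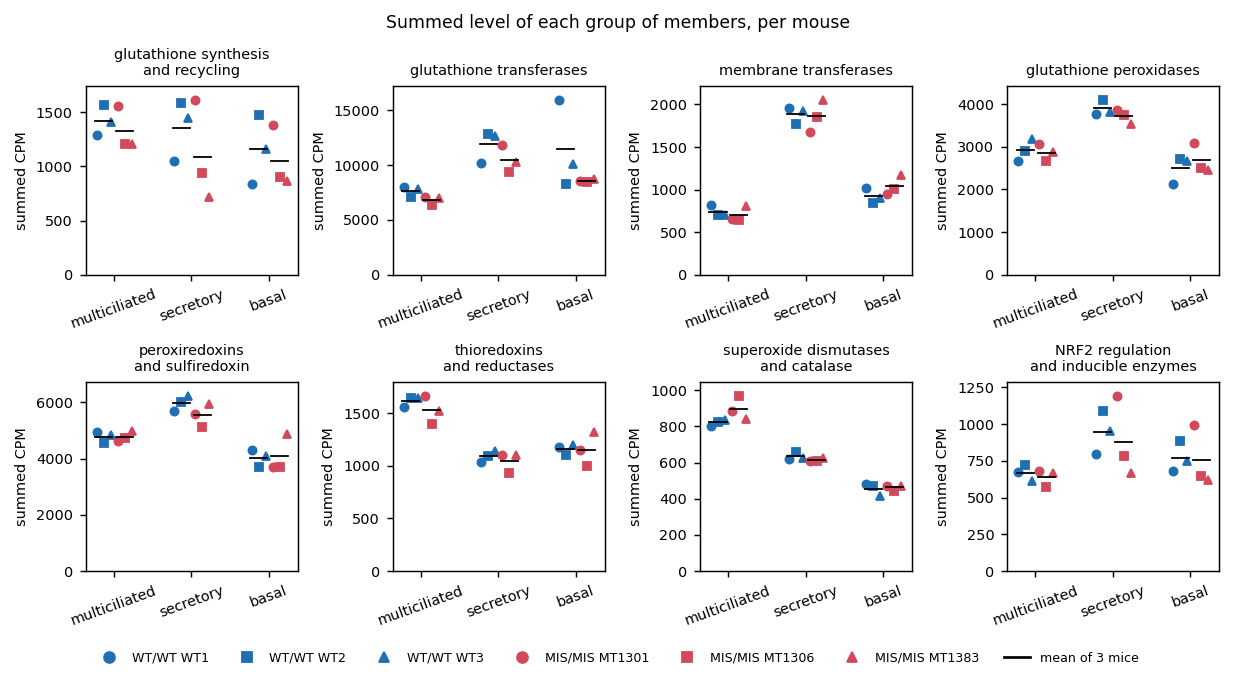
Summed CPM (vertical axes, from 0) of the 8 groups of members in multiciliated, secretory and basal cells, with 1 point per mouse, *WT/WT* in blue and *MIS/MIS* in red, and a line at the mean of 3 mice. Transferases lead in every class, WT1 stands at 15957 CPM in basal cells, and thioredoxins and dismutases are highest in multiciliated cells.

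Of the 58 members, 52 reached 10 CPM in at least 1 cluster and 6 did not (*Gpx6*, *Ggt6*, *Gstm3*, *Gpx7*, *Ggt5* and *Gstp3*). Of the 52, 22 had their highest mean in secretory, 21 in multiciliated and 9 in basal cells. The highest class was separated, every mouse above every mouse of the next class, for 11 of the 22, 11 of the 21 and 1 of the 9. Clusters had been made from expression of the same cells, so levels over clusters are a description with no test. Multiciliated4, often the highest cluster, held only 146 cells, 6 to 52 a mouse, and its means are over 5 mice.

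Glutathione synthesis was present in all 3 classes with wide spread between mice. *Gclc*, the catalytic subunit of glutamate-cysteine ligase, was at 627 ± 285 CPM in secretory, 509.6 ± 112 CPM in multiciliated and 435 ± 200.5 CPM in basal cells, and the classes overlapped. Among clusters *Gclc* was highest in Multiciliated1 (863 ± 268 CPM) and in Secretory2 (783 ± 341 CPM), and low in Multiciliated2 (186 ± 88.6 CPM) and Multiciliated4 (178 ± 45.4 CPM). *Gclm*, the modifier subunit of the same enzyme, went another way, with 607 ± 48.4 CPM in multiciliated, 454 ± 101 CPM in basal and 358 ± 77.7 CPM in secretory cells. In all 4 multiciliated clusters *Gclm* stood between 573 and 634 CPM, a range that Basal6 (639 ± 92.3 CPM) and Basal3 (636 ± 91 CPM) only just passed. *Gsr*, glutathione reductase, was level over the classes, at 176 ± 5.99 CPM, 177 ± 9.41 CPM and 175 ± 15.9 CPM in multiciliated, secretory and basal cells. *Gss*, glutathione synthetase, was lower in basal (37.5 ± 4.78 CPM) than in multiciliated (62.9 ± 5.92 CPM) and secretory cells (59.4 ± 10.2 CPM). Gamma-glutamyl transferases, which cleave glutathione outside the cell, were scarce. *Ggt1* was almost a multiciliated transcript, at 10.4 ± 4.14 CPM in multiciliated cells and at most 0.408 CPM in the others, and reached 18.1 ± 7.0 CPM in Multiciliated3 against 0.727 ± 0.254 CPM in Multiciliated2. *Ggt7* was at 25 CPM in the 108 neuroendocrine cells of MT1383, the 1 mouse with at least 20 of them, and at 1.69 CPM or less on average in the 3 classes.

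Glutathione transferases divided between the cell types. *Gsto1*, an omega-class enzyme that reduces dehydroascorbate and protein-glutathione bonds, was the most abundant member, with 5782 ± 969 CPM in secretory, 4988 ± 2268 CPM in basal and 3462 ± 480.4 CPM in multiciliated cells. Among clusters *Gsto1* was highest in Basal4 (10578 ± 3833 CPM, n = 4 mice with at least 20 cells), Basal8 (8989 ± 1899 CPM) and Basal5 (7573 ± 2294 CPM), while Basal3 held 2776 ± 455 CPM and Basal1 2820.1 ± 664 CPM. *Gsta4*, which conjugates the lipid peroxidation product hydroxynonenal, was at 2764 ± 911 CPM in basal, 1956 ± 317 CPM in secretory and 1099.6 ± 139 CPM in multiciliated cells, and it too was highest in Basal4 (5218 ± 1545 CPM). *Gsta1* and *Gsta2*, closely related alpha-class genes, were at 49.5 ± 28.9 CPM and 26.2 ± 13.4 CPM in basal cells and at 7.86 ± 2.64 CPM and 6.35 ± 1.61 CPM in multiciliated cells. In Basal4 *Gsta1* had a mean of 141 CPM with a range of 14.6 to 372 CPM over 4 mice, so the mean says little of any 1 mouse. *Gsta3*, the remaining alpha-class member, was by class highest in secretory cells (1469.8 ± 143 CPM, against 882 ± 103 CPM and 822 ± 76.9 CPM in basal and multiciliated cells), every secretory value lying above every value of the other classes. Single clusters did not keep to this: Multiciliated1 held 1575 ± 112 CPM and Basal2 1475 ± 133 CPM, beside 1500 ± 157 CPM in Secretory1 and 1429 ± 124 CPM in Secretory2.

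The mu class split further. *Gstm1* was at 1354 ± 113 CPM in multiciliated, 1306 ± 119 CPM in secretory and 879 ± 206 CPM in basal cells, and within the multiciliated class it ran from 392 ± 66 CPM in Multiciliated2 to 2509.7 ± 195 CPM in Multiciliated4. In the 28 ionocytes, pooled over 3 mice, *Gstm1* reached 3043 CPM, 2111 UMIs, exact Poisson 95% interval 2915 to 3176, which covers counting error only. *Gstm5* was also high in ionocytes, at 262 CPM, 182 UMIs, exact Poisson 95% interval 226 to 303. It was at 239 CPM in the neuroendocrine cells of 1 mouse, where *Gstm1* was at 223 CPM, its lowest cluster. The next cluster for *Gstm5* was Secretory1 (87.3 ± 14.5 CPM). *Gstt2*, of the theta class, was seen in ionocytes as well (17.3 CPM, 12 UMIs, exact Poisson 95% interval 8.94 to 30.2) and in Multiciliated2 (7.28 ± 3.35 CPM), and was under 1 CPM in every other cluster but neuroendocrine cells (8.03 CPM). *Gstm2* was by class highest in secretory cells (365 ± 25.9 CPM, against 202 ± 61.3 CPM and 158 ± 14.7 CPM in basal and multiciliated cells). Basal clusters differed widely, from 41.8 ± 15 CPM in Basal4 to 379 ± 48.8 CPM in Basal2 and 447 ± 115 CPM in Basal7. The last was the highest cluster, above Secretory1 (391 ± 29.7 CPM) and Secretory2 (321 ± 34.4 CPM). *Gstm7* was multiciliated, at 9.04 ± 1.37 CPM against 3.20 ± 0.855 CPM in secretory and 1.51 ± 0.546 CPM in basal cells, and highest in Multiciliated4 (23.4 ± 7.70 CPM). *Gsto2* (12.5 ± 1.84 CPM) and *Gstz1* (28.6 ± 2.09 CPM) were likewise separated in multiciliated cells, from 4.54 and 14 CPM or less elsewhere, and *Gstk1* (20.7 ± 2.08 CPM), *Gstt1* (8.84 ± 1.18 CPM) and *Gstt3* (32.9 ± 2.19 CPM) in secretory cells. *Gstp1*, the pi-class enzyme, was at 135 ± 73.9 CPM in multiciliated, 93.8 ± 60.7 CPM in basal and 83.8 ± 27.7 CPM in secretory cells, and *Gstp2* reached 49.4 ± 31.4 CPM in Basal4 and 40.3 ± 19.1 CPM in Multiciliated4.

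Of the membrane transferases, *Mgst1* was by class highest in secretory cells (1655 ± 150.5 CPM, against 705 ± 98 CPM in basal and 454 ± 59 CPM in multiciliated cells), and Secretory1 held most (1795 ± 171 CPM). Basal7 (1287 ± 319 CPM), Basal8 (1238 ± 349 CPM) and Basal2 (1152 ± 258 CPM) came near Secretory2 (1384 ± 124 CPM). Within the multiciliated class *Mgst1* was highest in Multiciliated1 (926 ± 71.3 CPM) and lowest in Multiciliated4 (174 ± 28.6 CPM). *Mgst2*, which can also make leukotriene C4, and *Mgst3* were both highest in Basal4, at 158 ± 41 CPM and 259.9 ± 35.2 CPM, and their classes overlapped.

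*Gpx4*, which reduces lipid peroxides within membranes, was the leading glutathione peroxidase, at 2399 ± 174 CPM in secretory, 1741 ± 109 CPM in multiciliated and 1432 ± 269 CPM in basal cells. Its highest cluster was Multiciliated4 (3044 ± 196 CPM) and its lowest with several mice Basal4 (803 ± 254 CPM). *Gpx2*, the epithelial peroxidase, was even over the classes (1133 ± 149 CPM, 957 ± 141 CPM and 923 ± 251 CPM in secretory, multiciliated and basal cells). *Gpx1*, the widespread cytosolic form, and *Gpx8*, of the endoplasmic reticulum, had the smallest ratios of the highest to the median cluster among the 52 members, 1.20 and 1.18, followed by *Gsr* (1.24), with 174 ± 11.7 CPM and 99.6 ± 3.75 CPM in secretory cells. Such a ratio does not show low clusters. *Gpx8* ran from 15.2 ± 4.39 CPM in Multiciliated2 to 109.5 ± 9.02 CPM in Multiciliated3. *Gpx1* was at 83.3 ± 7.29 CPM in Multiciliated2 and 183 ± 34.0 CPM in Basal7. *Gpx3*, a secreted form, was found mostly in Secretory1 (9.23 ± 5.35 CPM) and in ionocytes (10.1 CPM, 7 UMIs, exact Poisson 95% interval 4.06 to 20.8).

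Among peroxiredoxins, *Prdx6* and *Prdx1* led. *Prdx6*, which also has phospholipase activity, was at 2433 ± 180.4 CPM in secretory, 1724 ± 120.0 CPM in multiciliated and 1468 ± 297 CPM in basal cells, and *Prdx1*, cytosolic, at 2256 ± 192 CPM, 1756 ± 121 CPM and 1543 ± 205 CPM. Both had every secretory value above every value of the next class. Within multiciliated cells the family separated 2 clusters: Multiciliated4 held 3246 ± 351 CPM of *Prdx6*, 2076 ± 268 CPM of *Prdx5* and 91.5 ± 25.2 CPM of *Prdx3*, the last pair found in mitochondria. Multiciliated2 held 513 ± 101 CPM, 209 ± 26.9 CPM and 26.2 ± 6.53 CPM of the same genes but the highest level of *Prdx4*, the peroxiredoxin of the endoplasmic reticulum (214 ± 25.2 CPM, against 21.6 ± 8.91 CPM in Multiciliated4 and 126 ± 17.5 CPM in Basal6). *Prdx2* was even, at 457 ± 31.5 CPM in basal, 437 ± 18.9 CPM in secretory and 388 ± 14.3 CPM in multiciliated cells.

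*Txn1*, cytosolic thioredoxin, was a multiciliated transcript by level, at 1278 ± 99.6 CPM against 889 ± 128 CPM in basal and 715 ± 78.5 CPM in secretory cells. Multiciliated2 (1911 ± 159 CPM) and Multiciliated4 (1714 ± 373 CPM) held most and Secretory2 (484 ± 34.7 CPM) least. Its reductase *Txnrd1* was at 263 ± 46.5 CPM in secretory, 214 ± 23.8 CPM in multiciliated and 167 ± 42 CPM in basal cells. Mitochondrial *Txn2* was by class the 1 member separated in basal cells, and barely so (84.1 ± 3.77 CPM, 80.9 to 91 CPM, against 69.99 to 80.8 CPM in secretory cells). Its highest cluster was Multiciliated4 (118 ± 10.9 CPM), above the highest basal cluster, Basal6 (89.9 ± 3.30 CPM). *Txnrd2* and *Txnrd3* stayed between 5.40 and 11.2 CPM.

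The superoxide dismutases and catalase were highest in multiciliated cells, each with every mouse above the next class. *Sod2*, of mitochondria, was at 441 ± 30.1 CPM (secretory 337 ± 22.4 CPM, basal 253 ± 24.6 CPM), *Sod1*, of the cytosol, at 288 ± 28.3 CPM (214 ± 3.78 CPM and 157 ± 14.9 CPM), and *Cat*, catalase, at 129.8 ± 23.8 CPM (72.8 ± 6.89 CPM and 48.9 ± 5.49 CPM). *Sod2* reached 979.9 ± 45.1 CPM in Multiciliated4, while *Sod1* and *Cat* were highest in Multiciliated3, at 346 ± 26.7 CPM and 172 ± 17.4 CPM.

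*Keap1* was the flattest regulator, at 43.9 ± 1.48 CPM, 45 ± 0.735 CPM and 44.7 ± 2.18 CPM in multiciliated, secretory and basal cells. *Nfe2l2* was at 385 ± 45.3 CPM in secretory, 310.0 ± 37.5 CPM in basal and 263 ± 9.74 CPM in multiciliated cells. Their textbook targets did not share a pattern. *Hmox1*, heme oxygenase, was low in multiciliated cells (99.7 ± 33.3 CPM, against 375 ± 156 CPM in secretory and 287 ± 133 CPM in basal cells), whereas *Nqo1*, quinone reductase, was high in them (249 ± 40.3 CPM, against 120.2 ± 43.6 CPM in basal and 109 ± 26.2 CPM in secretory cells). *Srxn1*, sulfiredoxin, which restores overoxidized peroxiredoxins, was at 137 ± 51.7 CPM, 98.5 ± 21.6 CPM and 81.2 ± 32 CPM in secretory, multiciliated and basal cells.

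**Figure D2:**
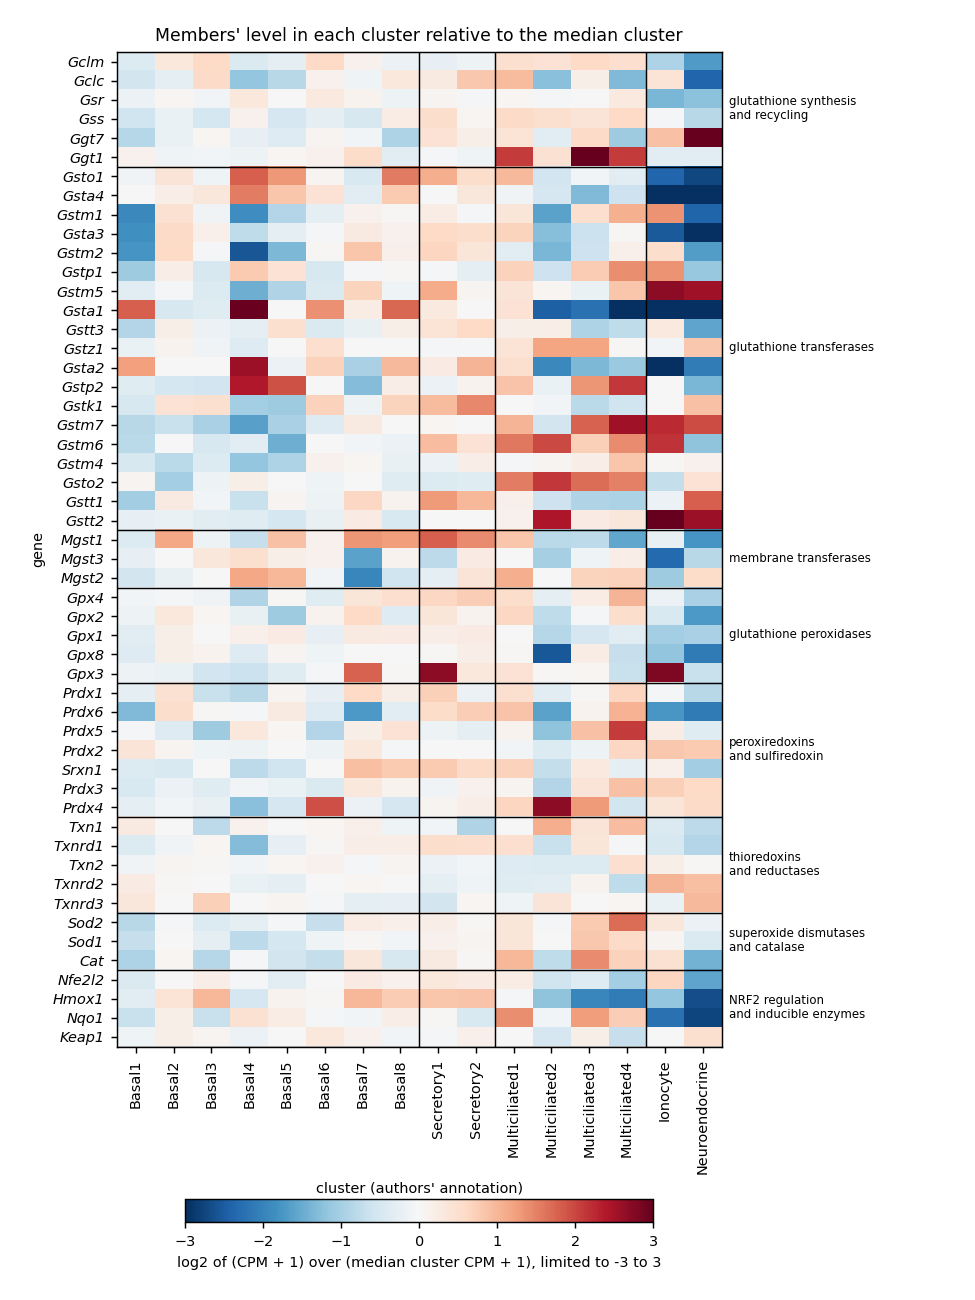
Heat map of the 52 members that reached 10 CPM in a cluster (rows, by group) over the 16 clusters (columns). Color is log2 of (CPM + 1) over (CPM + 1 of the median cluster), limited to -3 to 3, from means over the mice with at least 20 cells, pooled cells for ionocytes and 1 mouse for neuroendocrine cells. Red in Basal4 marks *Gsta1*, *Gsta2*, *Gstp2*, *Gsto1* and *Gsta4*, and red in Multiciliated4 marks *Prdx5*, *Sod2*, *Gstm7* and *Gpx4*.

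In multiciliated cells no member passed an adjusted p of 0.05 between genotypes (0 of 57 tested, with limma-trend also 0, lowest adjusted p = 0.896), where 1 of all 14206 genes did (0.00704%). At an unadjusted p of 0.05 there were 3 members, or 2 with limma-trend, against 4.32% of all genes. The log2 fold change was below 0 for 33 members and above 0 for 24, with a median of -0.051, and over all genes 48.5% were below 0 with a median of 0.0066. Genotypes did not overlap for 3 members higher in *MIS/MIS* (background 6.84% of genes) and 3 lower (3.19%). *Gsta4* was at 1315, 1164 and 1131 CPM in the *WT/WT* mice and 1034, 905 and 1049 CPM in the *MIS/MIS* mice, a log2 fold change of -0.30 (SE 0.10, unadjusted p = 0.019). *Gsto1* was at 3716, 3433 and 4206 CPM in the *WT/WT* mice and 3387, 2759.5 and 3270.2 CPM in the *MIS/MIS* mice, -0.30 (SE 0.11, unadjusted p = 0.032). In both, the lowest mouse was MT1306 and the genotypes did not overlap, though for *Gsto1* WT2 and MT1301 lay close together. *Nfe2l2* was at 269, 275 and 265 CPM in the *WT/WT* mice and 259, 261 and 247 CPM in the *MIS/MIS* mice, -0.10 (SE 0.072, unadjusted p = 0.20), again without overlap though within a narrow range. On the other side were 2 mu-class transferases and *Sod1*. *Gstm7* was at 7.69, 9.01 and 7.13 CPM in the *WT/WT* mice and 10.5, 9.95 and 9.92 CPM in the *MIS/MIS* mice, 0.32 (SE 0.13, unadjusted p = 0.041), and *Gstm2* at 152, 155 and 134 CPM in the *WT/WT* mice and 175, 168 and 165 CPM in the *MIS/MIS* mice, 0.19 (SE 0.088, unadjusted p = 0.068). *Sod1* was at 268, 269 and 272 CPM in the *WT/WT* mice and 302, 339.9 and 277 CPM in the *MIS/MIS* mice, 0.16 (SE 0.092, unadjusted p = 0.13), the *WT/WT* mice lying close together and MT1306 highest. Of the 21 transferases, 14 had log2 fold changes below 0 and 7 above. The mix of multiciliated clusters differed between mice. Multiciliated3 held 457 of the 651 multiciliated cells of MT1306, 381 of 653 in MT1301 and 1186 of 2155 in MT1383. In WT1, WT2 and WT3 it held 173 of 332, 250 of 582 and 265 of 450. *Gsto1* was at 2882 CPM in Multiciliated3 and 6033 CPM in Multiciliated1, *Gsta4* at 727 and 1687 CPM, and *Sod1* at 346 and 256 CPM. The part of this mix in the differences was not tested. Markers of basal cells also differed in these cells without overlap, at 1153, 1008 and 869 CPM in the *WT/WT* and 610, 546 and 718 CPM in the *MIS/MIS* mice, the 3 squamous keratins *Krt13*, *Krt4* and *Krt6a* likewise (303, 64.5 and 105 against 62, 29.5 and 53.8 CPM), and markers of multiciliated cells went the other way (3747, 3666 and 3746 against 4061, 4727 and 3924 CPM). *Gsta4* was higher in basal than in multiciliated cells, and so was *Gsto1* on average, though not in WT2. Both were highest in the cluster Basal4, and *Sod1* and *Gstm7* were lower in basal cells. The part of the basal, squamous and multiciliated markers in the differences was not tested.

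*Gstp1* and *Gsta1*, although named with *Gclc*, *Gsta4* and *Gsto1* in the list of lowered genes that the study drew from these same cells, overlapped between genotypes. That list is no independent evidence of a direction in them. *Gstp1* was at 276, 90.04 and 147 CPM in the *WT/WT* mice and 84.6, 128 and 83.8 CPM in the *MIS/MIS* mice (log2 fold change -0.69, SE 0.38, unadjusted p = 0.11), so WT1 alone stood clear of the others. *Gsta1* was at 5.99, 10.01 and 9.66 CPM in the *WT/WT* mice and 8.30, 3.42 and 9.77 CPM in the *MIS/MIS* mice (log2 fold change -0.28, SE 0.39, unadjusted p = 0.49), and without MT1306 its log2 fold change was 0.075. *Gclc* was at 451, 636 and 546 CPM in the *WT/WT* mice and 630.4, 426 and 367 CPM in the *MIS/MIS* mice (log2 fold change -0.23, SE 0.20, unadjusted p = 0.29), with MT1301 beside the highest *WT/WT* mouse. The remaining members stayed between -0.34 (*Gpx3*) and 0.93 (*Gpx7*), apart from *Gstp1*, and both of these were low, at most 0.948 and 1.13 CPM in any mouse.

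In secretory cells 0 of 54 members passed the adjusted threshold (lowest adjusted p = 0.99974, 0 also with limma-trend), against 1 of 13610 genes (0.00735%). Unadjusted, 4 did, also with limma-trend, where 1.9% of all genes did. The log2 fold changes were below 0 for 41 members and above for 13, median -0.064, while over all genes 51.6% were below 0 and the median was -0.0044. No overlap was seen for 1 member higher in *MIS/MIS* (2.92% of genes) and 3 lower (2.57%). The higher one was *Mgst2*, at 72.7, 57.4 and 57.4 CPM in the *WT/WT* mice and 80.3, 82.7 and 77 CPM in the *MIS/MIS* mice, 0.36 (SE 0.091, unadjusted p = 0.0049), and WT1 came nearest to the *MIS/MIS* mice. *Gstk1*, a mitochondrial and peroxisomal transferase, was at 23.1, 22 and 22 CPM in the *WT/WT* mice and 18, 20.8 and 18.4 CPM in the *MIS/MIS* mice, -0.24 (SE 0.073, unadjusted p = 0.013). *Gsta3* was at 1529, 1615 and 1598 CPM in the *WT/WT* mice and 1482, 1273 and 1321 CPM in the *MIS/MIS* mice, -0.22 (SE 0.087, unadjusted p = 0.037), its 3 *WT/WT* mice within 1529 to 1615 CPM. *Gstt1* was at 9.28, 8.84 and 10.7 CPM in the *WT/WT* mice and 8.58, 8.48 and 7.12 CPM in the *MIS/MIS* mice, -0.23 (SE 0.12, unadjusted p = 0.086). *Ggt6* did not overlap either but was under 0.2 CPM in every mouse and too low to be tested. *Gstp1* was again highest in WT1 and WT3, at 132, 69.1 and 100.5 CPM in the *WT/WT* mice and 64.5, 78.3 and 58.4 CPM in the *MIS/MIS* mice, and the genotypes overlapped (log2 fold change -0.55, SE 0.21, unadjusted p = 0.035). *Gclc*, the member with the widest range here, was at 506, 888 and 774 CPM in the *WT/WT* mice and 939, 440.1 and 216 CPM in the *MIS/MIS* mice (log2 fold change -0.66, SE 0.49, unadjusted p = 0.22), and the log2 fold change was -1.17 without MT1301 and -0.16 without MT1383.

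In basal cells 0 of 56 members and 0 of 14615 genes passed the adjusted threshold (0%; 0 members with limma-trend, lowest adjusted p = 0.99993), and 4 members passed unadjusted, also with limma-trend, against 2.29% of genes. Below 0 were 37 log2 fold changes and above 0 19, median -0.073, and over all genes 52.0% were below 0 with a median of -0.0069. Genotypes did not overlap for 2 members higher (6.08% of genes) and 4 lower (1.89%). *Gsta1* showed the largest difference: 68.3, 89.6 and 64.4 CPM in the *WT/WT* mice and 35.9, 17.3 and 21.7 CPM in the *MIS/MIS* mice, a log2 fold change of -1.66 (SE 0.27, unadjusted p = 0.00058). *Gsta2* was at 49.1, 33.8 and 25.9 CPM in the *WT/WT* mice and 17.2, 18.7 and 12.7 CPM in the *MIS/MIS* mice, -1.21 (SE 0.29, unadjusted p = 0.0052). These 2 genes share part of their 3′ ends, so their counts are not independent. *Gss* was at 44.4, 40.5 and 38.3 CPM in the *WT/WT* mice and 37.4, 31.2 and 33.3 CPM in the *MIS/MIS* mice, -0.33 (SE 0.12, unadjusted p = 0.032). *Gsta4* was at 4592, 2393 and 2709 CPM in the *WT/WT* mice and 2364, 2310.2 and 2214 CPM in the *MIS/MIS* mice, -0.49 (SE 0.26, unadjusted p = 0.11), with WT1 far above the other 5 mice. *Mgst1* was higher, at 650.4, 621 and 642 CPM in the *WT/WT* mice and 682, 750.0 and 882 CPM in the *MIS/MIS* mice (log2 fold change 0.21, SE 0.12, unadjusted p = 0.11), and so was *Gpx3* at 0.425 to 1.31 against 0.247 to 0.314 CPM.

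The cluster Basal4 was unevenly spread over the mice. Its 1365 cells came as 1048 from WT1, 167 from WT3, 118 from MT1306, 29 from MT1383, 2 from WT2 and 1 from MT1301, and the squamous keratins summed over all basal cells to 8496, 325 and 2925 CPM in the *WT/WT* and 507, 1096 and 588 CPM in the *MIS/MIS* mice. Without Basal4 no member was separated between genotypes in either direction, and the share over all genes was not computed there. *Gsta1* was then at 23.1, 88.8 and 25.8 CPM in the *WT/WT* and 35.9, 12.1 and 21.8 CPM in the *MIS/MIS* mice, so that WT2 alone stood out, and the log2 fold change was -0.84 (SE 0.59, unadjusted p = 0.20). *Gsta2* was then at -0.27 (SE 0.40), *Gss* at -0.15 (SE 0.12), *Gsta4* at -0.12 (SE 0.10) and *Mgst1* at 0.0052 (SE 0.21). Where *Gsta1* was high differed from mouse to mouse: in Basal4 it was at 105 CPM in WT1, 372 in WT3, 73.1 in MT1306 and 14.6 in MT1383, and in Basal1 at 188 CPM in WT2 and 11.8 to 56.9 in the other 5 mice. *Gsto1* in basal cells, at 9425, 3284 and 5247 CPM in the *WT/WT* mice and 3775, 4168 and 4026 CPM in the *MIS/MIS* mice, overlapped (log2 fold change -0.51, SE 0.37, unadjusted p = 0.22), and WT1 was at 6021 CPM without Basal4. Other basal clusters were uneven too. Basal5 held 262, 0 and 36 cells of the *WT/WT* and 35, 118 and 729 of the *MIS/MIS* mice. Of the 2269 cells of Basal2, 1295 came from MT1383. The part of these clusters in the values without Basal4 was not tested.

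**Figure D3:**
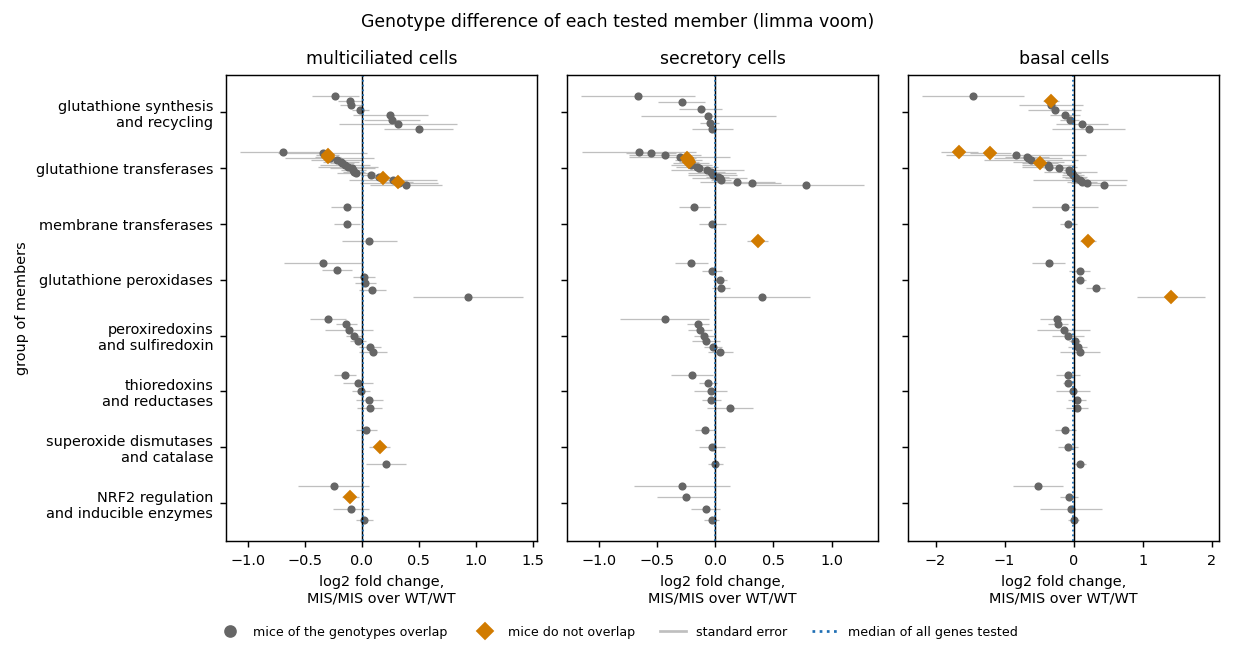
Log2 fold change, *MIS/MIS* over *WT/WT* (horizontal axes), of each tested member by group in multiciliated (57), secretory (54) and basal cells (56), with the standard error as a gray bar. Orange diamonds mark members whose mice did not overlap between genotypes, gray points the others, and the dotted line the median of all genes. Most points lie near 0, and *Gsta1* and *Gsta2* in basal cells are farthest to the left among the diamonds.

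**Figure D4:**
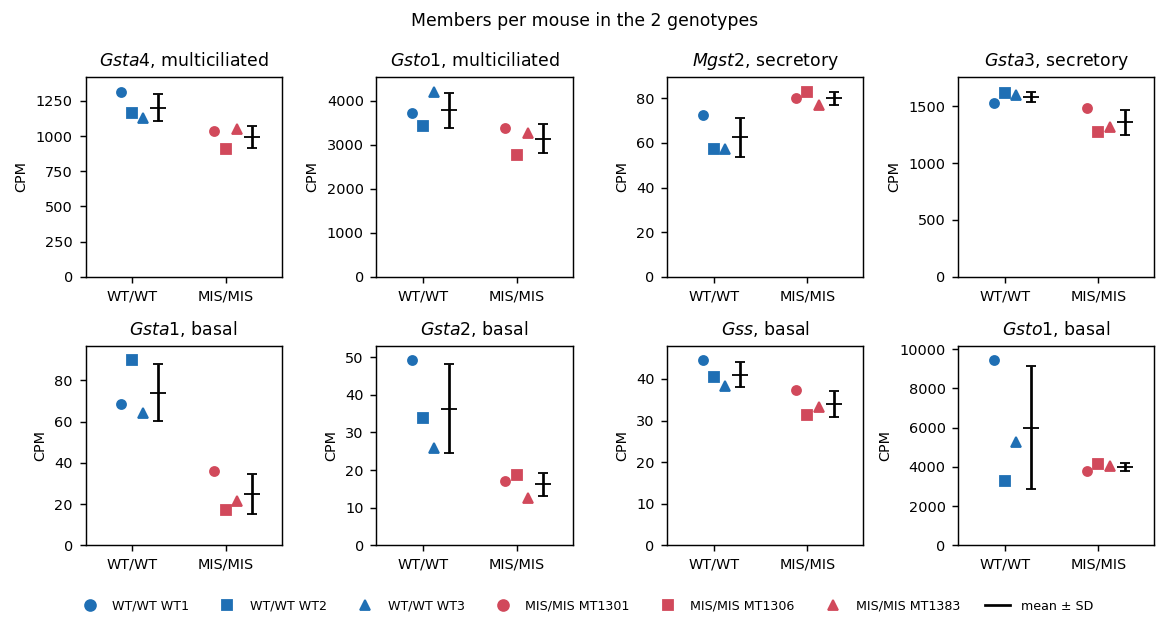
CPM per mouse (vertical axes, from 0) of *Gsta4* and *Gsto1* in multiciliated, *Mgst2* and *Gsta3* in secretory, and *Gsta1*, *Gsta2*, *Gss* and *Gsto1* in basal cells, *WT/WT* in blue and *MIS/MIS* in red, with mean ± SD of 3 mice in black. Genotypes are apart in the first 7 panels, by least for *Gsto1* in multiciliated cells and by little for *Gsta3* and *Gss*, and overlap for *Gsto1* in basal cells, where WT1 reaches 9425 CPM.

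Whether genotype acted differently in 2 classes was tested by the interaction in 1 fit of the 18 sums, with mouse as a block. No member passed the adjusted threshold in any of the 3 contrasts with limma voom or limma-trend, and with limma voom neither did any of the 15942 genes (0% in each). Unadjusted, 5 of 57 members passed for multiciliated minus basal cells (7 with limma-trend, 4.41% of all genes), 0 for multiciliated minus secretory (1 with limma-trend, 2.21%) and 2 for secretory minus basal (3, 2.76%). The lowest p belonged to *Mgst1*, whose log2 fold change was lower by 0.33 in multiciliated than in basal cells (difference -0.33, SE 0.078, unadjusted p = 0.0013, adjusted p = 0.978). *Gsta1* differed the other way (1.48, SE 0.47, unadjusted p = 0.0089). With Basal4 left out of the basal sums, the differences were -0.12 (SE 0.14, unadjusted p = 0.40) for *Mgst1* and 0.79 (SE 0.50, unadjusted p = 0.14) for *Gsta1*. The others were *Ggt6*, *Gpx4* and *Cat*, chosen here after their values were seen.

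In the 9 clusters with at least 20 cells from every mouse, the *MIS/MIS* mean was lower in all 9 for *Gclc*, *Gclm*, *Gpx2*, *Gsta2*, *Gsta4*, *Gsto1*, *Gstp1*, *Prdx3* and *Srxn1*, and these clusters share their mice. The share of all genes lower in all 9 was not computed. Genotypes did not overlap in 2 of the 9 for *Gsto1* and *Gstp1*, in 1 for *Gclm*, *Gpx2*, *Gsta2* and *Prdx3*, and in 0 for *Gclc*, *Gsta4* and *Srxn1*. *Gsta4* in Multiciliated3, the largest multiciliated cluster, was at 904, 737 and 685 CPM in the *WT/WT* and 703, 671 and 662 CPM in the *MIS/MIS* mice, which overlap. *Gsto1* in the same cluster was at 3127, 3066 and 3153 CPM against 3061, 2370 and 2514 CPM, where MT1301 came within a few CPM of WT2 and the genotypes were just apart. In Multiciliated2 *Gsto1* was at 2182, 2441 and 2222 CPM against 1968, 1739 and 1753 CPM, without overlap. *Mgst2* went against this, with a higher *MIS/MIS* mean in 7 of 9 clusters, and *Gpx1* and *Gpx4* with one in 8.

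The genes around the pathway were read from a list of 65 that supply cysteine, NADPH or glutathione, reduce disulfides, export conjugates or answer to NRF2. All 65 were in the table, and 65, 64 and 64 were tested in multiciliated, secretory and basal cells. None passed the adjusted threshold in any class with limma voom or limma-trend (with unadjusted p under 0.05 there were 8, 3 and 1, where the shares of all genes were 4.32%, 1.9% and 2.29%, and 9, 3 and 1 with limma-trend), and log2 fold changes were below 0 for 43, 47 and 46 (48.5%, 51.6% and 52.0% of all genes), with medians of -0.030, -0.077 and -0.082. In multiciliated cells *Akr1b8*, an aldo-keto reductase, was at 10.4, 10.3 and 9.83 CPM in the *WT/WT* mice and 19.6, 13.5 and 18.4 CPM in the *MIS/MIS* mice, 0.73 (SE 0.17, unadjusted p = 0.0026), so that every *MIS/MIS* mouse was higher. *Slc7a11*, the cystine importer that feeds glutathione synthesis, was at 103, 118 and 107 CPM in the *WT/WT* mice and 106, 55.2 and 67.5 CPM in the *MIS/MIS* mice (log2 fold change -0.59, SE 0.21, unadjusted p = 0.025), with MT1301 among the *WT/WT* mice. *Glrx3*, a glutaredoxin that carries iron-sulfur clusters, *Ptgr1*, which reduces reactive enals and leukotriene B4, and *Taldo1*, of the pentose phosphate pathway, had log2 fold changes of -0.26, -0.25 and -0.21. In secretory cells *Ptgr1* was at 64.5, 76.9 and 65.9 CPM in the *WT/WT* mice and 53.2, 46.2 and 56.9 CPM in the *MIS/MIS* mice, -0.41 (SE 0.12, unadjusted p = 0.010), without overlap. *Abcc1*, which exports glutathione conjugates, *Aldh3a1*, an aldehyde dehydrogenase, and *G6pdx*, the first enzyme of the NADPH-making pathway, were at -0.28, -0.29 and -0.35, and *Cbs*, near 1 CPM, at 0.58. In basal cells *Sesn3*, a sestrin, was at 48.9, 51.4 and 55.1 CPM in the *WT/WT* mice and 61.5, 65.7 and 63.4 CPM in the *MIS/MIS* mice (log2 fold change 0.24, SE 0.074, unadjusted p = 0.016), the 1 gene of the list with an unadjusted p under 0.05 there. *Ptgr1* in basal cells was at 177, 47 and 70.8 CPM in the *WT/WT* mice and 39, 46 and 41.7 CPM in the *MIS/MIS* mice, with WT1 far above the other 5 mice (log2 fold change -1.06, SE 0.49, unadjusted p = 0.069), and *Abcc4*, *Esd* and *Txndc17* were at -0.33, -0.26 and -0.19.

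The spread between mice was wider in these genes than in the table at large, which is given as a description with no test. Among members of at least 50 CPM, the highest mouse stood over the lowest by a median of 1.34 times in multiciliated (33 members), 1.35 in secretory (32) and 1.65 in basal cells (29), while the medians over all genes at that level were 1.24, 1.22 and 1.29. The NRF2 targets *Gclc*, *Hmox1* and *Srxn1* were the widest in secretory cells, at 4.34, 3.46 and 3.14 times. *Hmox1* was there at 296, 484 and 391 CPM in the *WT/WT* mice and 613, 288 and 177 CPM in the *MIS/MIS* mice, and *Srxn1* at 116, 182 and 156 CPM in the *WT/WT* mice and 201, 104 and 64.1 CPM in the *MIS/MIS* mice. In each of the 3 genes MT1301 was highest, WT2 second and MT1383 lowest, so that *MIS/MIS* mice held both ends of the range. *Txnrd1* had the same ends in secretory cells (304 CPM in MT1301, 300.3 in WT2 and 185 in MT1383). In basal cells *Gclc* was at 274, 680.3 and 448 CPM in the *WT/WT* mice and 671, 317 and 223 CPM in the *MIS/MIS* mice and *Hmox1* at 169.6, 396 and 269.5 CPM in the *WT/WT* mice and 497, 221 and 169 CPM in the *MIS/MIS* mice, with WT2 and MT1301 again the highest pair. *Nfe2l2* itself followed in part, with MT1301 (437 CPM) and WT2 (418 CPM) highest and MT1383 (311 CPM) lowest in secretory cells. *Nqo1* did not: it was highest in WT2 and MT1383 in secretory cells, at 97.2, 143 and 113 CPM in the *WT/WT* mice and 97.2, 71.7 and 133 CPM in the *MIS/MIS* mice, and in WT1 and MT1383 in basal cells. *Keap1* stayed within 44 to 46.1 CPM in secretory cells.

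The pair WT2 and MT1301 was noticed after the values were seen. It was the highest pair for 7 of 33 members in multiciliated, 11 of 32 in secretory and 8 of 29 in basal cells (21.2%, 34.4% and 27.6%), and for 18.9%, 20.8% and 19.4% of all genes at that level. *Gclc*, *Hmox1* and *Srxn1* belonged to it in all 3 classes. Basal markers in secretory cells were also highest in WT2, at 3301 CPM, followed by MT1306 (2416 CPM) and MT1301 (2360 CPM), and lowest in MT1383 (1171 CPM), and their part in these levels was not tested. WT1 was the highest mouse for another group in basal cells, *Gstp1*, *Mgst2*, *Gsto1*, *Gsta4* and *Nqo1*, and held 1048 of its 1834 basal cells in Basal4. In *Gstp1* the excess of WT1 was not limited to that cluster: WT1 was the highest mouse in 14 of the 14 clusters in which it had at least 20 cells, for example at 355 CPM against 87.3 to 160.5 in Multiciliated3 and 176 against 60.8 to 139 in Basal2.

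**Figure D5:**
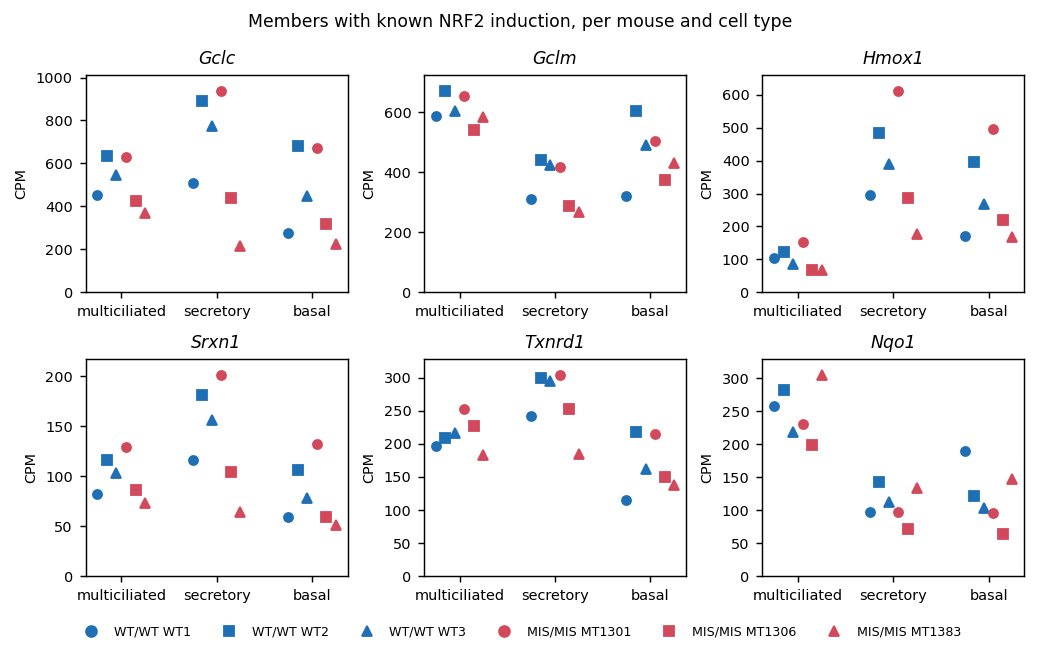
CPM per mouse (vertical axes, from 0) of *Gclc*, *Gclm*, *Hmox1*, *Srxn1*, *Txnrd1* and *Nqo1* in multiciliated, secretory and basal cells, *WT/WT* in blue and *MIS/MIS* in red. MT1301 and WT2 lie on top for *Gclc*, *Hmox1* and *Srxn1* in all 3 classes and MT1383 at or near the bottom, while *Nqo1* has another order.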

How the data were processed

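Cultured tracheal epithelium was dissociated and sequenced as Chromium 3′ single-cell libraries, 1 per mouse. The deposited table holds whole-number UMI counts per gene and cell, made by the authors with Cell Ranger 7.1.0 on mm10 per the labels (the study's methods name an earlier version, and whether intronic reads were counted is not given in the sources used here). A second deposited table gives each cell its cluster, and the library was read from the start of the cell name. The fields of both tables are parted by a written mark in place of a tab, and 0 columns of sample values were left unused. The authors clustered in Seurat and named clusters by hand. Their methods kept cells of 2500 to 7500 genes, the upper limit standing against doublets, and at most 25% mitochondrial reads, and 23216 of the 23871 deposited cells met this (655 had over 7500 genes). All cells were used and no doublet caller was run.

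Counts were summed per mouse and cell class or cluster. Genes with at least 10 counts in 3 mice, scaled to the median library, and 15 in all were tested with limma 3.58.1 (R 4.3.3) by voom with TMM factors, *MIS/MIS* against *WT/WT*, and p-values were adjusted by Benjamini-Hochberg over all genes, with a threshold of 0.05. Here edgeR and DESeq2, planned as the main test and as an alternative, were not run, because the odd separator kept the tables from being registered as plain count tables, and limma voom took the place of the planned main test. Interactions were fitted over 18 sums with mouse as a block. Cluster levels are means over mice with at least 20 cells, and ionocytes were pooled. Python 3.11.15, numpy 2.4.6, pandas 2.3.3, scipy 1.17.1 and matplotlib 3.10.9 were used, and the fits were tested on simulated data. Gene positions and 3′ ends came from GENCODE M21 and promoters from RefSeq.

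Named with values are the 2 most abundant members of each of the 8 groups, up to 6 members per class whose genotypes did not overlap (by lowest p), the glutathione genes of the study's list of lowered genes, 5 genes of the NRF2 system, the members with the largest and smallest ratio of highest to median cluster, and up to 5 neighbouring pathway genes per class. Others were named after their values were seen. The members and lists were chosen with earlier results of these data known.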

Additional observations from a re-analysis of the deposited data

How the results depend on the processing

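With 3 mice a genotype and 1 culture each, p-values measure the spread between these mice. The planned edgeR and DESeq2 fits were not run, and limma-trend was added after seeing the data. No paired analysis was possible because the names of the *MIS/MIS* libraries carry no number shared with the *WT/WT* mice.

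No member passed the adjusted threshold under relative log expression or upper-quartile scaling, no filter, limma-trend, the stated cell filters, the largest cluster alone, equal cluster composition, without Multiciliated1 or Basal4, or without any 1 mouse, and neither did any interaction under limma-trend, without Basal4 (added after seeing the data) or without 1 mouse. Of 367 alternative values of 27 genotype differences of single genes, 363 kept their direction. The 4 that turned were *Gsta1* in multiciliated cells without MT1306 (0.075, with -0.70 as the lowest value without 1 mouse), *Gclc* in basal cells without MT1383 (0.027, with -0.77 as the lowest), *Gsta2* in Basal1 alone (0.0014) and *Mgst1* in basal cells at equal composition (-0.16).

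The median log2 fold change in multiciliated cells moved from -0.051 to -0.022 with limma-trend, -0.021 in Multiciliated3 alone and -0.012 without Multiciliated1. The 3 members higher without overlap in multiciliated cells became 0 in Multiciliated3 alone and 0 at equal composition, the 4 lower ones in basal cells 0 at equal composition, and the 2 higher and 4 lower ones there 0 and 0 without Basal4. The shares over all genes in these settings were not computed, so these drops cannot be called particular to the members. The cause was not tested.

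Leaving out 1 mouse gave medians of -0.057 to -0.013 in multiciliated, -0.11 to -0.011 in secretory and -0.098 to -0.027 in basal cells, with 29 to 36, 32 to 42 and 31 to 38 members lower. Fewer mice overlap less by construction: 3 to 9 members were then higher and 4 to 8 lower without overlap in multiciliated, 2 to 4 and 5 to 15 in secretory, and 2 to 7 and 4 to 10 in basal cells, the highest counts lower standing without MT1301 (8, also without MT1383), MT1301 (15) and WT2 (10). Over all genes the same omissions gave 9.89% to 17.7% higher and 4.66% to 10.2% lower in multiciliated, 4.93% to 11.3% and 5.64% to 10.7% in secretory (10.7% without MT1301) and 9.05% to 13.9% and 3.28% to 7.38% in basal cells.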
